A study of Mus musculus with 17 samples.

Results

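Transcripts of the receptors for interleukins and colony-stimulating factors were followed in mouse splenic type 1 and type 2 conventional dendritic cells (cDC1s and cDC2s). These had been cultured with the medium of live, apoptotic or necroptotic tumor cells. The list holds 42 genes, chosen as receptor chains by name and matched to the count table through their Ensembl identifiers, out of 31091 genes in the table. A row was found for 41 of them, and Il13ra2 is not analysed here. A gene was called too rare to measure where its mean was under 10 counts in each group, which left 32 measured and 9 rare receptor genes.

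The 17 samples form 6 groups. The cDCs came from spleens, pooled from at least 2 mice per experiment, of female C57BL/6JRj mice that carried a subcutaneous B16 tumor expressing FLT3L, a growth factor that expands dendritic cells. CD11c+ cells were enriched magnetically and cultured for 6 h with the uncentrifuged medium of TC-1 cells, a mouse lung epithelial tumor line, and then sorted into cDC1s and cDC2s. The medium came from wild-type cells (WT, live), from a clone with inducible BimS (TC-1-iBimS, apoptotic) or from a clone with inducible RIPK3 (TC-1-iRIPK3, necroptotic). All of these tumor cells, WT included, had received the inducer cumate, and by the culture protocol of the study the CD11c+ cells also received GM-CSF, the ligand of Csf2ra, added for survival. Each group has 3 samples, except cDC2s with RIPK3 debris, which has 2. The labels do not say that replicates came from separate mice or cultures, so p-values measure the spread between these samples.

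Cytokine receptors of this kind are assembled from a chain that recognises the ligand and a chain, often shared between several cytokines, that passes the signal on. The common gamma chain (Il2rg) serves interleukins such as IL-2, IL-4, IL-7, IL-15 and IL-21, the common beta chain (Csf2rb) serves GM-CSF, IL-3 and IL-5, gp130 (Il6st) serves the IL-6 group, and Il1rap serves the IL-1 group. Most of these receptors signal through JAK kinases and STAT factors, whereas IL-1, IL-18 and IL-17 receptors signal to NF-kB, and Csf1r is itself a kinase. In dendritic cells, GM-CSF supports survival and differentiation, and IL-10 restrains maturation.

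The sequenced libraries held between 16095159 and 21645289 counted reads. The unit of level is CPM, the count of a gene relative to the TMM-normalized size of its library, and levels of different genes are compared only as CPM per kilobase of exon. Exon length joins all annotated exons of a gene, so ranks and ratios between genes depend on that choice. For Csf2rb it is 7277 bases against 4764 in the canonical transcript, and for Csf2rb2 it is 4740 by both. The markers listed for cDC1s (such as Clec9a and Xcr1) summed to between 1397 and 1725 CPM in cDC1s and to between 98.8 and 132 CPM in cDC2s. The markers listed for cDC2s (such as Sirpa and Clec10a) summed to between 2.33 and 4.07 CPM in cDC1s and to between 291 and 381 CPM in cDC2s. Of other cells that carry these receptors, 9 T and NK cell markers summed to at most 0.814 CPM in cDC1s and to between 1.07 and 2.91 CPM in cDC2s, 6 B cell markers to at most 1.68 CPM, 6 neutrophil markers to at most 1.73 CPM, and the 3 of 6 basophil and mast cell markers with a row to at most 0.361 CPM. Of the 8 tumor cell markers with a row, Thbs1 and Cdh1 reached 162 and 37.7 CPM in cDC2s and Thbs1 5.94 CPM in cDC1s, and the others (Krt8, Krt18, Epcam, Cav1, Col1a1, Sparc) reached at most 1.44 CPM in any sample, Epcam in cDC1s the highest. In bulk samples, fewer cells of a type and less RNA per cell cannot be told apart.

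Promoter sequence is given for Il4ra and Il21r, neighbours that rose in both cell types, for Il1rap and Il13ra1, which fell, and for Csf2rb2, the less abundant gene of the common beta chain pair. The 250 bases before the first annotated base of each gene were read 5′ to 3′ from GRCm39 on the gene's strand, at chr7:125150829-125151078 (Il4ra, forward), chr7:125202351-125202600 (Il21r, forward), chr16:26400100-26400349 (Il1rap, forward), chrX:35375211-35375460 (Il13ra1, forward) and chr15:78189922-78190171 (Csf2rb2, reverse). They were searched on both strands for the STAT motif TTCNNNGAA, the AP-1 motif TGANTCA and the antioxidant response element TGACNNNGC, and capitals mark a match.
Il4ra: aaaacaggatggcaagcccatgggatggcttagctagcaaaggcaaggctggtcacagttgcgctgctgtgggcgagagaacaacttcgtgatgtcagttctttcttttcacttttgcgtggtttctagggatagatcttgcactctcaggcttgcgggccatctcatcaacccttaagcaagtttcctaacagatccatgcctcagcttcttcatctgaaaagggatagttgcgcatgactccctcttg
Il21r: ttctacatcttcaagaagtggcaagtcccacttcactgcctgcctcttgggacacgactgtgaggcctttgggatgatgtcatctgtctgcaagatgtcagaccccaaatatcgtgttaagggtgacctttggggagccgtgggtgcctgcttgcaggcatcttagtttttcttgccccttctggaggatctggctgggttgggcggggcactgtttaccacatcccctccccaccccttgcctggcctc
Il1rap: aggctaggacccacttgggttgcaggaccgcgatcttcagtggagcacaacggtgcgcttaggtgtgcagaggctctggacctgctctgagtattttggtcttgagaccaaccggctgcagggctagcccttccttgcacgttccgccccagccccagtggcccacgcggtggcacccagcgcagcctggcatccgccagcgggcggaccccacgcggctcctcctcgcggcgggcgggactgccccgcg
Il13ra1: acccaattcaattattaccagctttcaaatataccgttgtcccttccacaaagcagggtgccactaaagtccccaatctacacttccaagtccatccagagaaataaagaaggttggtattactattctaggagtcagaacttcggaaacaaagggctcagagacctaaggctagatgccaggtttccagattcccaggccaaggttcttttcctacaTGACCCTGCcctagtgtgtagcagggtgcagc
Csf2rb2: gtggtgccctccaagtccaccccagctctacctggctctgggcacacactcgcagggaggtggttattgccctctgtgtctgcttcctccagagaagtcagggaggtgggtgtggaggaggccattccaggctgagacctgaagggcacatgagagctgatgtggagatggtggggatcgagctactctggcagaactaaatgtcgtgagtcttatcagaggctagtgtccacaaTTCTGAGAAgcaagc
The match in Csf2rb2 is the STAT motif, which begins 15 bases before the gene, and the match in Il13ra1 is the antioxidant response element, 32 bases before it. Il4ra, Il21r and Il1rap hold none of the 3 motifs in this window, and neither does Csf2rb, the more abundant gene of the beta chain pair, whose sequence is not shown. The STAT motif was found in 2 of the 32 measured receptor genes (Csf2rb2 and Il12rb2) and in 7.82% of 21751 protein-coding genes. The antioxidant response element was found in 4 of 32 and in 9.31% of all. The AP-1 motif was found in 0 of 32 and in 6.46% of all.

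Among the 42, 9 receptor genes were too rare to measure. Il20ra, a chain of the receptors for IL-19, IL-20 and IL-24, had 1 read in 1 of 17 libraries. Il17rb and Il17rc, the partner chains of Il17ra for IL-25 and IL-17A, and Il23r, the IL-23 receptor chain, reached at most 2 counts in any library. Il5ra, the IL-5 chain, reached at most 3 counts, the secreted IL-22 binding protein Il22ra2 at most 5, and Il12rb1, the chain that IL-12 and IL-23 share, at most 6. Il9r had 1, 0 and 1 counts in cDC1s with WT medium and 9, 8 and 7 in cDC2s, and reached at most 9. Il17re, the IL-17C receptor chain, had 1, 0 and 0 counts in cDC2s with WT medium, 2, 2 and 3 with BimS debris and 3 and 8 with RIPK3 debris. Differences between such counts are not read as expression, and a library with 0 counts still allows up to 3.

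With WT medium, the most abundant receptor transcript per kilobase was Csf2rb in both cell types, with 365 CPM per kilobase in cDC1s and 244 in cDC2s. In cDC1s it was followed by Csf2rb2 (150), Csf2ra (71.8) and Il10ra (67.1), and among these neighbours the samples of Csf2ra and Il10ra overlapped. Il4ra (31.8), Il7r (28.0), the decoy receptor Il1r2 (25.2) and Il6st (19.8) came next, and the samples of Il4ra, Il7r and Il1r2 were not separated from their neighbours in that order. In cDC2s, Il10ra (90.8), Il1r2 (87.0), Il2rg (83.3), Csf2rb2 (82.8), Csf2ra (78.0), Il7r (68.6) and Il4ra (59.8) formed a group in which each gene's samples overlapped those of the next, and Il21r (50.5) and Il12rb2 (27.6) followed. At the low end of the measured genes, Il1r1, Il1rl1, Il1rl2 and Il27ra stayed under 0.06 CPM per kilobase in cDC1s, as means of 3 samples.

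**Figure D1:**
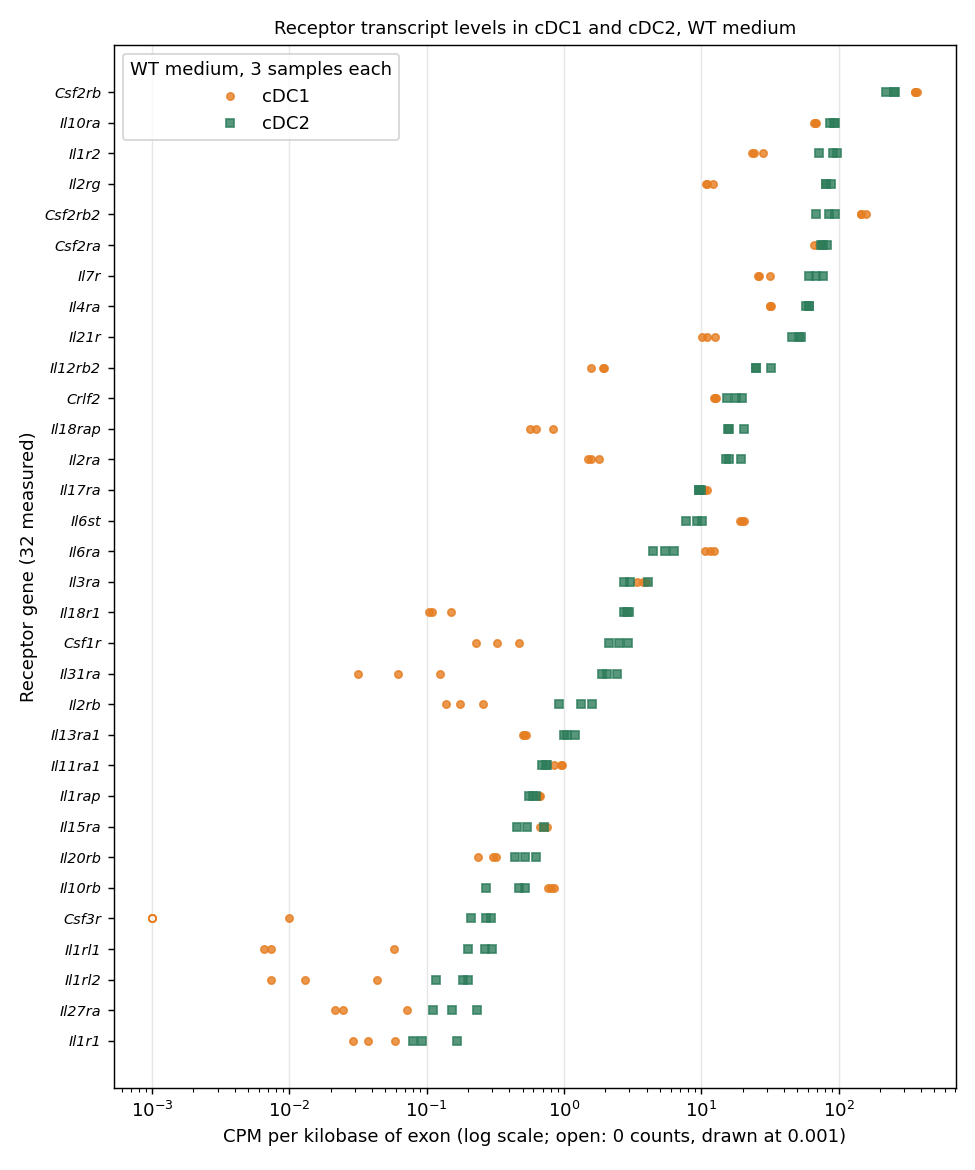
Levels of the 32 measured receptor genes with WT medium, in CPM per kilobase of exon on a log axis, with 1 point per sample (circles cDC1s, squares cDC2s, 3 each; open symbols mark 0 counts). Csf2rb is highest in both cell types, and Il18rap, Il18r1, Il31ra, Il12rb2 and Csf3r lie far to the right in cDC2s.

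The comparison of cDC1s with cDC2s asks which receptors each lineage carries, over all media. Of the 37 receptor genes that passed the filter on low counts, 30 differed at an adjusted p under 0.05 (edgeR), 8 higher in cDC1s and 22 higher in cDC2s. The 22 include the rare Il9r, at counts too low to read as expression. Over all 19082 genes tested, 59.8% were called, 30.4% higher in cDC1s and 29.4% lower, so most genes differ between these cells. The median log2 difference (cDC1 minus cDC2) was -0.94 over the receptor genes tested and 0.029 over all genes.

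In the IL-1 receptor family, 6 of 7 measured genes were higher in cDC2s and 1, Il1rap, was higher in cDC1s. Of these, the IL-18 receptor pair stood furthest apart. Il18r1, which binds IL-18, ranged from 0.173 to 1.22 CPM (median 0.539) in 9 cDC1 samples and from 9.18 to 14.6 CPM (median 13.0) in 8 cDC2 samples (log2 difference -4.25 ± 0.13 (SE), adjusted p = 1.79e-22). Its signaling partner Il18rap ranged from 2.68 to 5.79 CPM (median 4.23) and from 75.1 to 137 CPM (median 107) (-4.64 ± 0.13 (SE), adjusted p = 5.54e-15), and neither gene overlapped between the cell types. The decoy Il1r2, which binds IL-1 without signaling, ranged from 58.8 to 90.6 CPM (median 70.5) in cDC1s and from 181 to 352 CPM (median 253) in cDC2s (-1.83 ± 0.091 (SE), adjusted p = 1.44e-11). The signaling IL-1 receptor Il1r1 reached only 0.404 CPM in cDC1s and 1.13 CPM in cDC2s (-1.69 ± 0.26 (SE), adjusted p = 1.16e-06). Il1r2 exceeded it by 600-fold in cDC1s and 773-fold in cDC2s per kilobase with WT medium, from means of 3 samples. The IL-33 receptor Il1rl1 and the IL-36 receptor Il1rl2 had at most 0.561 and 0.299 CPM in cDC1s, and were higher in cDC2s. The log2 difference was -3.10 ± 0.29 (SE), adjusted p = 1.08e-10 for Il1rl1. Il1rl2 had at most 2 counts in each cDC1 library with RIPK3 debris and 0.762 and 1.55 CPM in the 2 cDC2 libraries with that medium. Their mean of 1.16 CPM was 7.31-fold a floor of 3 counts per library (0.158 CPM). That value rests on these 2 samples, and the lower of them lies closer to the floor. Il1rap ranged from 6.17 to 10.3 CPM (median 8.83) in cDC1s and from 4.79 to 9.58 CPM (median 6.16) in cDC2s (0.39 ± 0.079 (SE), adjusted p = 7.33e-05), with overlap, and lost its call with WT medium alone (adjusted p = 0.255). These 6 genes other than Il1rap lie together on chromosome 1, where Il18r1 begins 136 bases after the end of Il1rl1 on the same strand, so reads near that boundary depend on how the counting assigned them.

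Among the common gamma chain receptors and the TSLP receptor, 7 of 8 measured genes were higher in cDC2s. The shared chain Il2rg ranged from 24.9 to 31.1 CPM (median 26.1) in cDC1s and from 181 to 229 CPM (median 199.5) in cDC2s (log2 difference -2.92 ± 0.052 (SE), adjusted p = 1.23e-28). The IL-2 receptor alpha chain Il2ra ranged from 7.48 to 11.0 CPM (median 8.71) and from 66.0 to 111.8 CPM (median 87.9) (-3.26 ± 0.083 (SE), adjusted p = 1.17e-19), and the beta chain Il2rb, which IL-2 and IL-15 share, from 0.598 to 2.53 CPM (median 1.03) and from 4.00 to 8.14 CPM (median 6.49) (-2.48 ± 0.15 (SE), adjusted p = 4.92e-15). All of these groups were separate. Il21r (-2.05 ± 0.071 (SE), adjusted p = 3.03e-16), Il7r (-1.62 ± 0.11 (SE), adjusted p = 5.3e-09) and Il4ra (-0.94 ± 0.035 (SE), adjusted p = 1.06e-20) were also higher in cDC2s without overlap, and Crlf2, the TSLP chain, was higher with overlap (-0.45 ± 0.060 (SE), adjusted p = 1.05e-07). Il15ra, which presents IL-15, was the exception, with 2.65 to 4.79 CPM (median 3.26) in cDC1s and 1.61 to 3.65 CPM (median 2.67) in cDC2s (0.45 ± 0.14 (SE), adjusted p = 0.00669). Its groups overlapped, and with WT medium alone the call ended (adjusted p = 0.289). Il13ra1, which pairs with Il4ra to bind IL-13, was higher in cDC2s (-0.74 ± 0.13 (SE), adjusted p = 9.27e-06).

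The common beta chain pair was higher in cDC1s. Csf2rb ranged from 2615 to 3002 CPM (median 2786) in cDC1s and from 1615 to 2330 CPM (median 2152) in cDC2s (log2 difference 0.44 ± 0.041 (SE), adjusted p = 6.62e-11), and its mouse paralog Csf2rb2, the IL-3-specific beta chain, from 695 to 857 CPM (median 772) and from 328 to 516 CPM (median 447) (0.79 ± 0.051 (SE), adjusted p = 2.11e-14). The annotated canonical transcripts of the pair share 17.3% of the 54-base stretches of Csf2rb, and the genes lie 20 kb apart on chromosome 15, so reads from shared stretches could have been split or dropped by the counting. The GM-CSF chain Csf2ra (-0.083 ± 0.043 (SE), adjusted p = 0.101, or adjusted p = 0.0117 with the replicate number as a block) and the IL-3 chain Il3ra (0.12 ± 0.088 (SE), adjusted p = 0.259) were not called between the cell types.

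Of the IL-6, IL-12 and G-CSF receptor family, Il6ra, Il6st and Il11ra1 were higher in cDC1s and Il12rb2, Il31ra, Il27ra and Csf3r were higher in cDC2s. Il6st ranged from 298 to 377 CPM (median 349) in cDC1s and from 119.7 to 181 CPM (median 152) in cDC2s (1.13 ± 0.051 (SE), adjusted p = 2.21e-18), and the IL-6 binding chain Il6ra from 77.0 to 109.9 CPM (median 87.8) and from 31.6 to 56.5 CPM (median 39.3) (1.12 ± 0.084 (SE), adjusted p = 8.6e-10). Both IL-6 receptor chains were thus higher in cDC1s without overlap. Il12rb2, the signaling chain of the IL-12 receptor, ranged from 5.28 to 9.06 CPM (median 7.13) in cDC1s and from 91.3 to 123 CPM (median 96.0) in cDC2s (-3.88 ± 0.095 (SE), adjusted p = 6.59e-18), and Il31ra, the IL-31 chain, from 0.180 to 0.759 CPM (median 0.452) and from 9.84 to 17.3 CPM (median 11.5) (-4.72 ± 0.16 (SE), adjusted p = 1.85e-20). The G-CSF receptor Csf3r had at most 2 counts in every cDC1 library and a mean of 1.32 CPM in cDC2s with WT medium, at least 9.08-fold higher against a floor of 3 counts per library. The 6 neutrophil markers, a cell that carries Csf3r, summed to between 0.243 and 1.73 CPM in cDC2s, and their part in Csf3r was not tested. Il27ra was lower than 1 CPM in every sample. With RIPK3 debris it had at most 3 counts in each cDC1 library. The 2 cDC2 libraries had 3 and 8 counts (0.176 and 0.517 CPM), the lower at the limit of detection. Their mean of 0.347 CPM was 2.19-fold the same floor (0.158 CPM), and no lower bound on the difference is read from it. Il11ra1 (0.35 ± 0.095 (SE), adjusted p = 0.00166), which overlaps 5 other genes in the table, lost its call with WT medium alone (adjusted p = 0.0528). Palm3 overlaps Il27ra and Serbp1 overlaps Il12rb2, and the counting strand is not given in the sources used here.

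The IL-10 receptor ligand chain Il10ra ranged from 258 to 298 CPM (median 269) in cDC1s and from 379 to 431 CPM (median 408) in cDC2s (-0.57 ± 0.039 (SE), adjusted p = 5.2e-14), whereas the shared partner Il10rb was higher in cDC1s, with 3.22 to 5.47 CPM (median 4.67) and 1.67 to 3.89 CPM (median 2.96) (0.66 ± 0.13 (SE), adjusted p = 4.19e-05). Il20rb was higher in cDC2s (-0.91 ± 0.15 (SE), adjusted p = 3.64e-06). Il17ra, the shared IL-17 receptor chain, was nearly even, with 75.4 to 96.1 CPM (median 79.9) in cDC1s and 75.5 to 87.8 CPM (median 82.2) in cDC2s (0.037 ± 0.039 (SE), adjusted p = 0.442). The M-CSF receptor Csf1r, a marker of macrophages and monocytes, ranged from 1.48 to 3.46 CPM (median 1.72) in cDC1s and from 12.6 to 21.6 CPM (median 16.9) in cDC2s (-3.08 ± 0.11 (SE), adjusted p = 2.24e-20). The 9 macrophage and monocyte markers, Csf1r among them, summed to between 111 and 227 CPM in cDC1s and to between 66.3 and 110 CPM in cDC2s, most of it Cd14 (80.8 to 190.2 and 30.01 to 69.1 CPM). Adgre1 (0.327 to 1.35 and 2.85 to 5.16 CPM) and Fcgr1 (0.910 to 5.43 and 9.05 to 17.6 CPM) of the same list were higher in cDC2s, as Csf1r was, and Lyz2 (21.5 to 31.4 and 2.98 to 9.46 CPM) was lower, as Cd14 was. The other 4 (Ly6c2, Mertk, C1qa and C1qb) overlapped between the cell types and stayed at or under 1.89 CPM. The part of these cells in the Csf1r difference was not tested.

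Set side by side, the chains of a receptor were often far apart in level. In cDC2s with WT medium, Il12rb2 stood at 27.6 CPM per kilobase while its partner Il12rb1 had 0, 0 and 1 counts in the 3 libraries. Il17ra stood at 10.6 CPM per kilobase in cDC1s and 9.77 in cDC2s, while Il17rc and Il17rb, its partners for IL-17A and IL-25, were at the limit of detection (at most 3 counts in each sample) in both. Il20rb was measured without Il20ra. Il10ra exceeded Il10rb by 83.3-fold in cDC1s and 216-fold in cDC2s per kilobase, and Il2rg exceeded Il2rb by 59.6-fold and 65.0-fold. The GM-CSF receptor was the most abundant complete pair, with Csf2ra at 71.8 and 78.0 CPM per kilobase beside Csf2rb. Both chains for IL-4 (Il4ra, Il2rg), IL-7 (Il7r, Il2rg), IL-21 (Il21r, Il2rg) and TSLP (Crlf2, Il7r) were at 11.2 CPM per kilobase or more in cDC1s and at 17.65 or more in cDC2s.

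**Figure D2:**
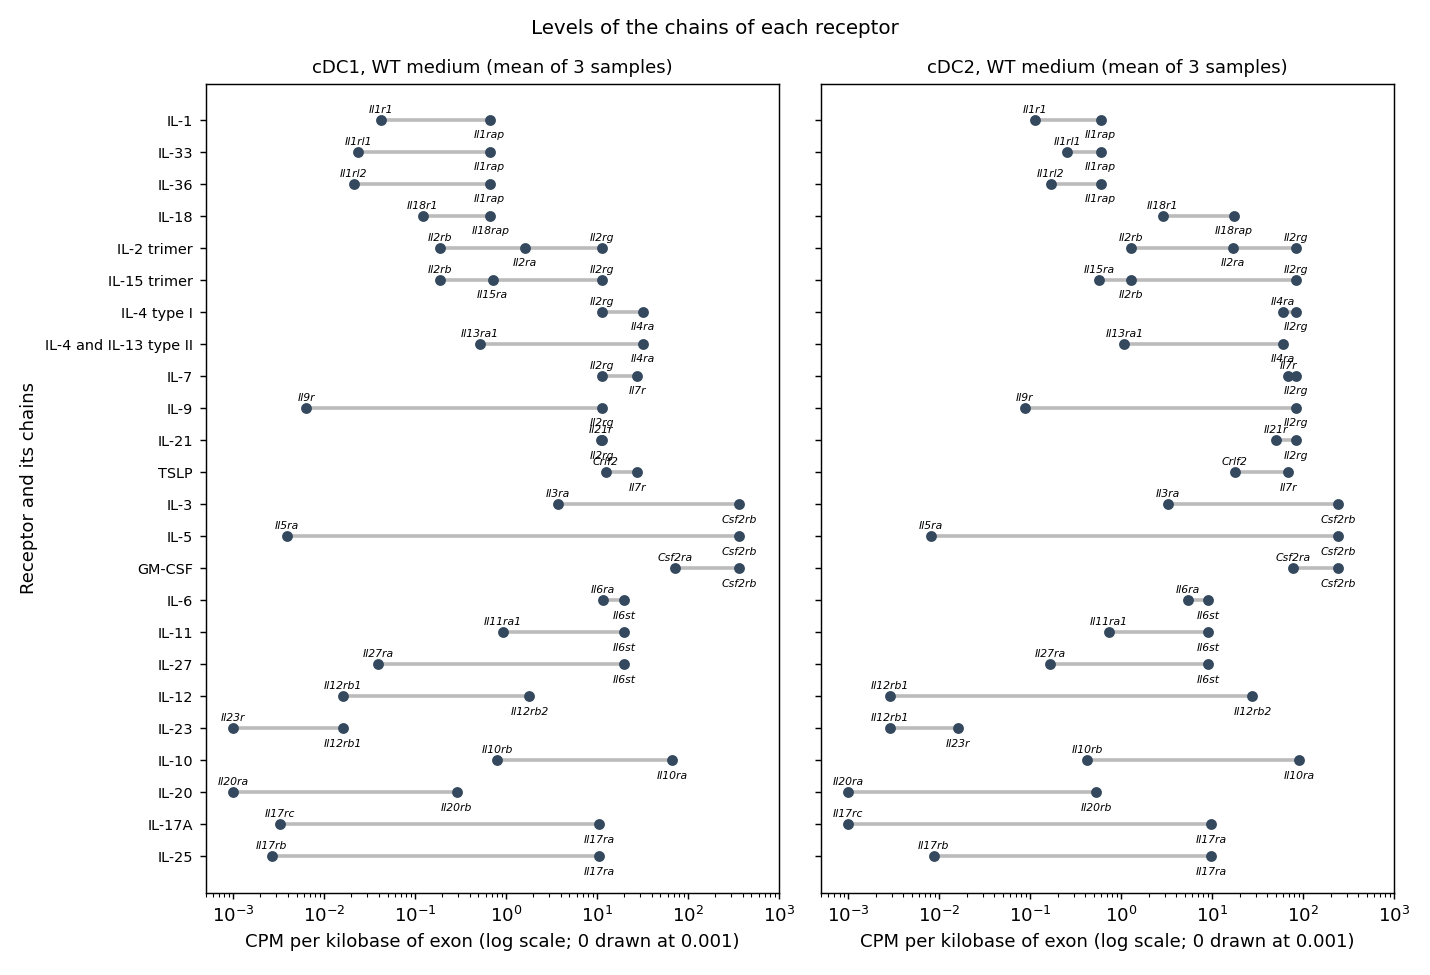
Chains of each receptor with WT medium, in CPM per kilobase of exon on a log axis (mean of 3 samples; 0 drawn at 0.001), joined by a grey line. The lines for IL-12, IL-20, IL-17A and IL-25 run down to chains with at most a few counts, while both GM-CSF chains lie at 71.8 CPM per kilobase or more.

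Debris was compared with WT medium, and RIPK3 debris with BimS debris, within each cell type, to find receptors that differ with dying cells and with the mode of death. Each kind of debris came from its own engineered line, so mode of death and line cannot be told apart. The study reports more efficient uptake of apoptotic than of necroptotic debris, and the sorted cells were not selected for uptake. Comparisons with WT share the WT samples. In cDC1s, 36 receptor genes were tested, 31 of them measured. With BimS debris 6 rose and 3 fell, where 7.31% and 5.89% of all 19513 genes did (13.2% together). With RIPK3 debris 5 rose and 5 fell, where 8.34% and 8.19% of all genes did (16.5% together). RIPK3 against BimS debris gave 2 higher and 1 lower, with a background of 1.94% and 2.21% (4.15% together). The median log2 fold change of the receptor genes was 0.13, -0.077 and -0.098 in the 3 comparisons, and that of all genes was 0.002, -0.006 and -0.005. The median for RIPK3 against WT changed sign without RIPK3 replicate 2 (0.004) or WT replicate 1 (0.005). The median for BimS against WT kept its sign but fell to 0.027 without BimS replicate 2. It fell to 0.058 without WT replicate 3 and to 0.07 without WT replicate 2. With the replicate number as a block, which pairs the samples as checked on the data, 11, 14 and 7 receptor genes were called, where 17.9%, 21.0% and 8.87% of all genes were.

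In cDC2s, 38 receptor genes were tested, 32 of them measured. With BimS debris 4 rose and 2 fell, where 3.80% and 3.21% of all 19239 genes did (7.01% together). With RIPK3 debris 3 measured genes rose and 2 fell, and the rare Il17re, at counts too low to read as expression, also passed the test as higher, where 3.93% and 3.28% of all genes did (7.21% together). RIPK3 against BimS debris gave 1 receptor gene, Il21r, higher and 0 lower, with 0.161% and 0.218% of all genes (0.379% together). The median log2 fold change of the receptor genes was 0.10, 0.047 and -0.047, and that of all genes was -0.019, -0.022 and -0.005. The receptor median for RIPK3 against WT changed sign with limma on log2(count + 1) (-0.079), with limma on the deposited values (-0.011) and without WT replicate 3 (-0.037). The receptor median for BimS against WT fell to 0.001 and 0.005 with these 2 limma fits, where that of all genes was -0.087 and -0.105. It fell to 0.051 without BimS replicate 2 and to 0.053 without WT replicate 1. With the replicate block 15, 20 and 14 receptor genes were called, where 21.3%, 21.4% and 14.3% of all genes were. Block values are given for some of the genes described here and not for every gene the block added. The block was adopted from these same data and spends further terms on few samples. Its p-values therefore lean on spread pooled over genes, and very small ones are not read as stronger evidence. With limma on log2(count + 1), the calls that held in cDC1s were Crlf2 and Csf2ra for BimS against WT, Il1rap, Il18rap, Il2rb, Il4ra, Il21r, Il6ra and Il17ra for RIPK3 against WT and Il18rap for RIPK3 against BimS. In cDC2s they were Il1rap and Il13ra1 against WT with both kinds of debris, and Il21r and, at rare counts, Il17re with RIPK3 debris. With limma on the deposited values, Csf2rb and Il6st for BimS against WT lost their calls in cDC1s. Crlf2 for RIPK3 against WT and Il2rb for RIPK3 against BimS also lost theirs there. In cDC2s the lost calls were Csf2ra and Csf2rb for BimS against WT and Csf2rb for RIPK3 against WT.

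**Figure D3:**
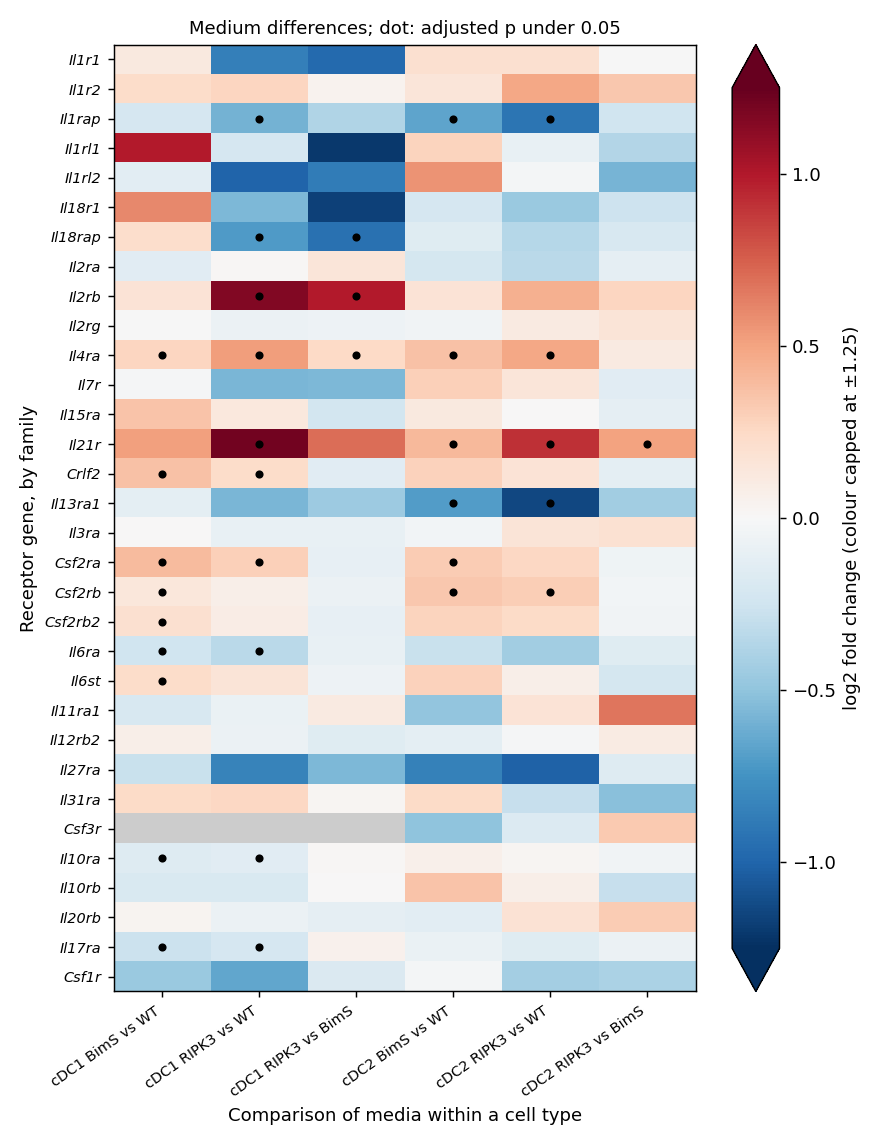
Log2 fold changes of the 32 measured receptor genes (rows, by family) in the 6 comparisons of media (columns), from red (higher in the condition named before "vs") to blue (lower). Black dots mark an adjusted p under 0.05 and grey marks Csf3r, which was not tested in cDC1s. Il4ra and Il21r are red and Il1rap is blue against WT medium in both cell types.

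Il4ra, the ligand-binding chain for IL-4 and a chain for IL-13, rose in both cell types with both kinds of debris. It is ENSMUSG00000030748, chr7:125151079-125182844, forward strand, on GRCm39. Il4ra levels in cDC1s were 314, 320 and 318 CPM with WT medium, 384, 383 and 379.6 CPM with BimS debris and 453, 462 and 448 CPM with RIPK3 debris. The 3 groups did not overlap, and the log2 fold change was 0.27 ± 0.044 (SE), adjusted p = 1.99e-05 for BimS against WT, 0.52 ± 0.044 (SE), adjusted p = 1.42e-11 for RIPK3 against WT and 0.25 ± 0.044 (SE), adjusted p = 0.00037 for RIPK3 against BimS. Il4ra levels in cDC2s were 575, 605 and 609 CPM with WT medium, 739, 778 and 797 CPM with BimS debris and 817 and 855 CPM with RIPK3 debris. The rise in cDC2s was 0.37 ± 0.073 (SE), adjusted p = 0.00259 with BimS and 0.48 ± 0.081 (SE), adjusted p = 0.000525 with RIPK3 debris. RIPK3 and BimS debris differed by 0.11 ± 0.082 (SE), adjusted p = 0.765 (0.0444 with the replicate block). The 5 calls held when any 1 sample was left out, and 4 of them, all but RIPK3 against WT in cDC1s, were lost with limma on log2(count + 1) (adjusted p between 0.162 and 0.513).

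Il21r, the IL-21 receptor, is the next gene on chromosome 7 (ENSMUSG00000030745, chr7:125202601-125232756, forward strand), 19.8 kb from Il4ra on the same strand with 0 protein-coding genes between, and it rose with it. Il21r levels in cDC1s were 42.8, 34.1 and 37.0 CPM with WT medium, 61.6, 46.1 and 54.9 CPM with BimS debris and 94.0, 74.0 and 95.6 CPM with RIPK3 debris. The log2 fold change was 1.21 ± 0.15 (SE), adjusted p = 0.00115 for RIPK3 against WT, a 2.31-fold rise. It was 0.51 ± 0.15 (SE), adjusted p = 0.0816 for BimS against WT (adjusted p = 3.82e-14 with the replicate block), and 0.70 ± 0.15 (SE), adjusted p = 0.0505 for RIPK3 against BimS (4.44e-23 with the block), with no overlap between any groups. Il21r levels in cDC2s were 175, 156 and 182 CPM with WT medium, 232, 202 and 247 CPM with BimS debris and 333 and 316 CPM with RIPK3 debris. There the rise was 0.41 ± 0.086 (SE), adjusted p = 0.00481 with BimS and 0.91 ± 0.095 (SE), adjusted p = 1.84e-06 with RIPK3 debris, and RIPK3 exceeded BimS debris by 0.51 ± 0.095 (SE), adjusted p = 0.0171. The last call was lost without BimS replicate 1 or 2 or either RIPK3 sample (adjusted p between 0.0827 and 0.413), and the call for BimS against WT in cDC2s without WT replicate 2 (adjusted p = 0.0645).

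**Figure D4:**
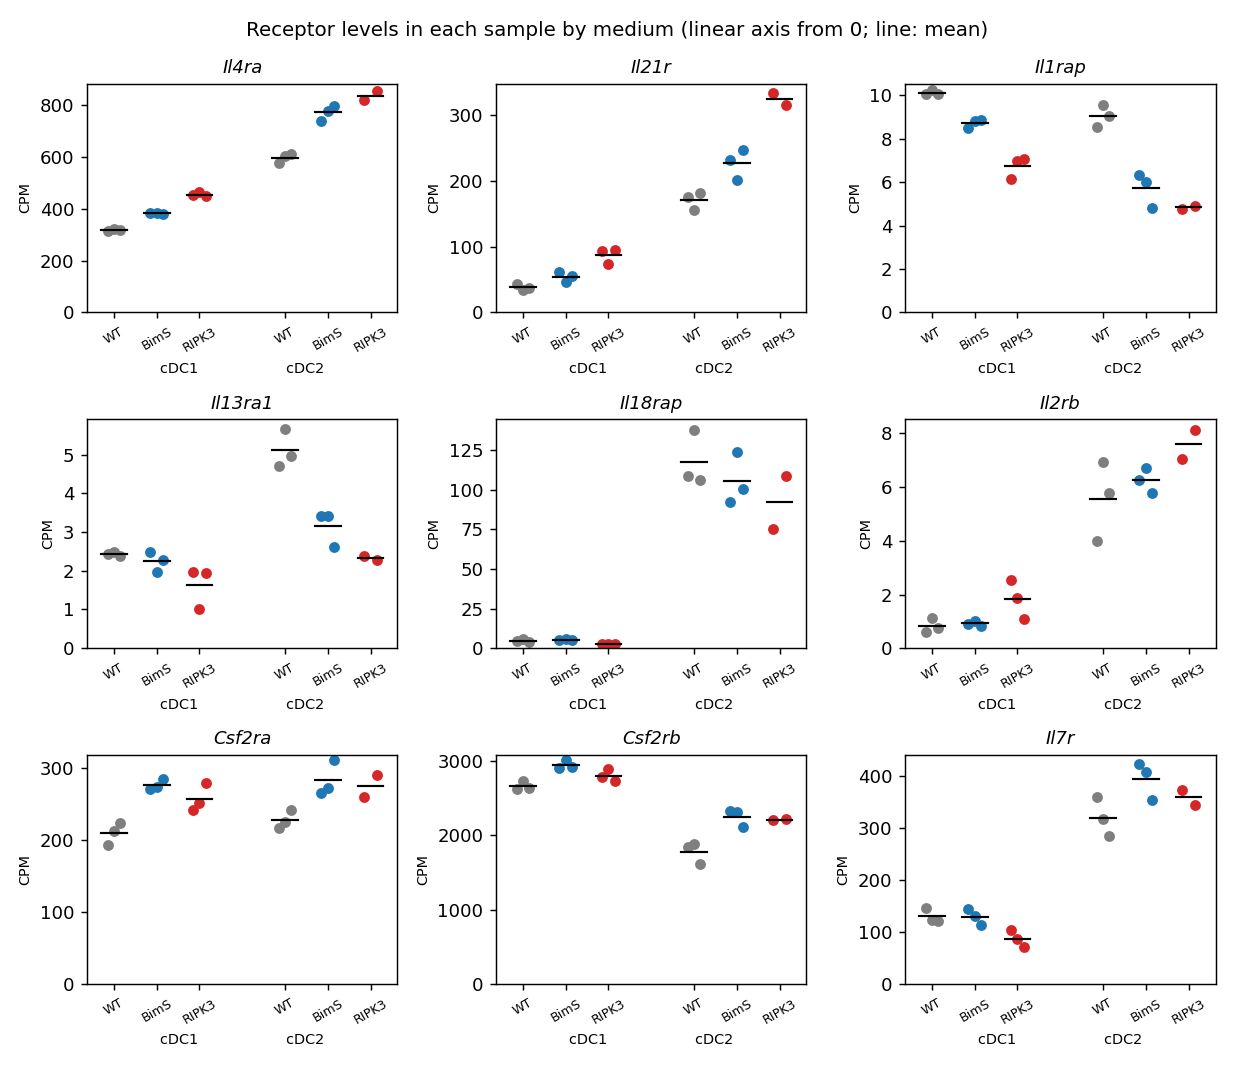
Levels of 9 receptor genes in CPM (linear axes from 0), with 1 point per sample and a line at the mean, for cDC1s and cDC2s with WT, BimS or RIPK3 medium. The means of Il4ra and Il21r climb from WT to BimS to RIPK3 in both cell types, and those of Il1rap fall in the same order. Not every step was called. In cDC2s, RIPK3 against BimS was called without the block for Il21r alone, and the Il1rap samples of these groups overlap.

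Il2rb, a signaling chain for IL-2 and IL-15, rose in cDC1s with RIPK3 debris from a low level. Il2rb levels in cDC1s were 0.598, 1.12 and 0.763 CPM with WT medium, 0.916, 1.03 and 0.825 CPM with BimS debris and 2.53, 1.86 and 1.09 CPM with RIPK3 debris. The RIPK3 samples were the 3 highest but for WT replicate 2, which exceeded RIPK3 replicate 3. The log2 fold change was 1.16 ± 0.30 (SE), adjusted p = 0.00508 against WT and 0.99 ± 0.30 (SE), adjusted p = 0.0495 against BimS debris. Without RIPK3 replicate 1 the call against WT was lost (adjusted p = 0.0893). The call against BimS debris was lost without any of the BimS samples or RIPK3 replicate 1 or 2 (adjusted p between 0.0692 and 0.295), and with DESeq2, filterByExpr, limma on the deposited values and limma on log2(count + 1). Il2rb levels in cDC2s were 4.00, 6.94 and 5.77 CPM with WT medium, 6.26, 6.71 and 5.79 CPM with BimS debris and 7.05 and 8.14 CPM with RIPK3 debris. With RIPK3 debris the difference from WT in cDC2s was 0.45 ± 0.20 (SE), adjusted p = 0.222 (0.0351 with the block). Il2ra levels in cDC1s ranged from 7.48 to 11.0 CPM with overlapping groups (RIPK3 against WT 0.010 ± 0.12 (SE), adjusted p = 0.974). Il2ra levels in cDC2s were 111.8, 91.4 and 87.0 CPM with WT medium, 91.7, 79.3 and 78.3 CPM with BimS debris and 88.7 and 66.0 CPM with RIPK3 debris. Against WT, Il2ra was -0.22 ± 0.12 (SE), adjusted p = 0.339 with BimS and -0.33 ± 0.13 (SE), adjusted p = 0.167 with RIPK3 debris, or adjusted p = 0.000148 and 5.35e-10 with the block. Il2rg levels in cDC2s were 192, 195 and 210 CPM with WT medium, 181, 191 and 208 CPM with BimS debris and 204 and 229 CPM with RIPK3 debris. The groups overlapped, and for Il2rg RIPK3 against WT was 0.12 ± 0.091 (SE), adjusted p = 0.578 (0.0127 with the block) and RIPK3 against BimS was 0.16 ± 0.091 (SE), adjusted p = 0.665 (0.00121 with the block). T and NK cell markers, of cells that carry Il2rb, summed to at most 0.502 CPM in cDC1s with RIPK3 debris and to at most 0.814 CPM with WT medium.

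Il7r, the IL-7 chain that also serves TSLP, was called in both cell types with the replicate block, and its call without the block depended on the setting. Il7r levels in cDC1s were 147, 123 and 122 CPM with WT medium, 144, 131 and 113 CPM with BimS debris and 105, 86.4 and 71.1 CPM with RIPK3 debris. The RIPK3 samples were below all others, and RIPK3 against WT was -0.58 ± 0.17 (SE), adjusted p = 0.0693 (4.92e-21 with the block and 0.00653 with DESeq2), and it was also called with filterByExpr, with limma and without RIPK3 replicate 1. Within each replicate number the RIPK3 sample was the lowest of the 3. Il7r levels in cDC2s were 359, 317 and 284 CPM with WT medium, 423, 408 and 355 CPM with BimS debris and 373 and 345 CPM with RIPK3 debris. There BimS against WT was 0.30 ± 0.093 (SE), adjusted p = 0.0577 (2.74e-12 with the block and 0.0346 with DESeq2), and it was also called with RLE factors, with no filter and without BimS replicate 3 or WT replicate 1. Crlf2, which pairs with Il7r for TSLP, rose in cDC1s. Crlf2 levels in cDC1s were 29.2, 30.5 and 29.9 CPM with WT medium, 38.8, 38.2 and 38.9 CPM with BimS debris and 31.5, 35.7 and 37.9 CPM with RIPK3 debris. The rise was 0.37 ± 0.069 (SE), adjusted p = 0.000134 with BimS and 0.23 ± 0.070 (SE), adjusted p = 0.0196 with RIPK3 debris, and the latter call was lost without RIPK3 replicate 2 or 3 or WT replicate 1 or 3 (adjusted p between 0.058 and 0.124). In cDC2s its levels ranged from 36.7 to 59.7 CPM with overlap, and BimS against WT was 0.29 ± 0.12 (SE), adjusted p = 0.194 (1.37e-05 with the block).

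Il13ra1, the partner of Il4ra in the receptor for IL-13, fell in cDC2s while Il4ra rose. It is ENSMUSG00000017057, chrX:35375461-35435331, forward strand. Il13ra1 levels in cDC2s were 4.72, 5.68 and 4.96 CPM with WT medium, 3.41, 3.41 and 2.62 CPM with BimS debris and 2.39 and 2.29 CPM with RIPK3 debris. All samples with debris were below all samples with WT medium, and the log2 fold change was -0.70 ± 0.18 (SE), adjusted p = 0.0183 with BimS and -1.14 ± 0.21 (SE), adjusted p = 0.00151 with RIPK3 debris. The call with BimS debris was lost without BimS replicate 3 or WT replicate 2 (adjusted p = 0.0949 and 0.11). Il13ra1 levels in cDC1s were 2.44, 2.49 and 2.38 CPM with WT medium, 2.50, 1.96 and 2.27 CPM with BimS debris and 1.97, 1.00 and 1.96 CPM with RIPK3 debris. In cDC1s RIPK3 against WT was -0.57 ± 0.23 (SE), adjusted p = 0.0923, and this comparison passed the test with limma on log2(count + 1), with limma on the deposited values and without RIPK3 replicate 3.

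Il1rap, the accessory chain that the receptors for IL-1, IL-33 and IL-36 need to signal, fell in cDC1s with RIPK3 debris and in cDC2s with both kinds. It is ENSMUSG00000022514, chr16:26400350-26548880, forward strand. Il1rap levels in cDC1s were 10.1, 10.3 and 10.1 CPM with WT medium, 8.50, 8.83 and 8.87 CPM with BimS debris and 6.17, 6.98 and 7.08 CPM with RIPK3 debris. No groups overlapped, and the log2 fold change was -0.59 ± 0.11 (SE), adjusted p = 0.000161 for RIPK3 against WT, -0.21 ± 0.11 (SE), adjusted p = 0.239 for BimS against WT and -0.38 ± 0.12 (SE), adjusted p = 0.0586 for RIPK3 against BimS (0.0218 with the block). Il1rap levels in cDC2s were 8.57, 9.58 and 9.06 CPM with WT medium, 6.33, 6.00 and 4.83 CPM with BimS debris and 4.79 and 4.92 CPM with RIPK3 debris. The samples with BimS and RIPK3 debris overlapped there and were not called apart by edgeR, with or without the block. In cDC2s Il1rap changed by -0.66 ± 0.14 (SE), adjusted p = 0.00575 with BimS and by -0.91 ± 0.17 (SE), adjusted p = 0.00134 with RIPK3 debris on the log2 scale, and both calls held without any 1 sample (adjusted p at most 0.0434 and 0.0364).

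Il18rap, the signaling chain for IL-18, fell in cDC1s with RIPK3 debris. Il18rap levels in cDC1s were 4.23, 5.59 and 3.82 CPM with WT medium, 4.94, 5.79 and 5.10 CPM with BimS debris and 2.68, 2.86 and 2.76 CPM with RIPK3 debris. The RIPK3 samples were below all others, at -0.71 ± 0.17 (SE), adjusted p = 0.00284 against WT and -0.93 ± 0.17 (SE), adjusted p = 0.000588 against BimS debris, and the call against WT was lost without WT replicate 2 (adjusted p = 0.0527). Il18rap levels in cDC2s were 108, 137 and 106 CPM with WT medium, 92.0, 124 and 100.2 CPM with BimS debris and 75.1 and 109 CPM with RIPK3 debris. In cDC2s RIPK3 against WT was -0.36 ± 0.19 (SE), adjusted p = 0.36 (3.23e-12 with the block), with overlap. Il18r1 had 14.2, 14.6 and 13.6 CPM in cDC2s with WT medium and 9.18 and 11.4 CPM with RIPK3 debris (-0.46 ± 0.14 (SE), adjusted p = 0.0556, or 0.00106 with the block). Il18r1 levels in cDC1s were 0.747, 0.509 and 0.539 CPM with WT medium, 1.22, 0.794 and 0.722 CPM with BimS debris and 0.506, 0.502 and 0.173 CPM with RIPK3 debris. In cDC1s RIPK3 against BimS for Il18r1 was -1.17 ± 0.40 (SE), adjusted p = 0.0976 (0.0445 with the block). Il1r2 in cDC2s had 181, 229.5 and 248 CPM with WT medium and 267 and 352 CPM with RIPK3 debris (0.49 ± 0.16 (SE), adjusted p = 0.0962, or 5.24e-27 with the block), and in cDC1s RIPK3 against WT was 0.27 ± 0.12 (SE), adjusted p = 0.219 (8.35e-06 with the block). Il1r1, Il1rl1 and Il1rl2 were called in no comparison of media, with or without the block.

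In the common beta chain family, Csf2ra (ENSMUSG00000059326, chr19:61212395-61216892, reverse strand) rose with both kinds of debris in cDC1s, in cultures that by the protocol all received its ligand GM-CSF. Csf2ra levels in cDC1s were 194, 212 and 223 CPM with WT medium, 272, 273 and 285 CPM with BimS debris and 242, 252 and 279 CPM with RIPK3 debris. No sample with debris overlapped the WT samples, and the log2 fold change was 0.40 ± 0.054 (SE), adjusted p = 9.09e-07 with BimS and 0.29 ± 0.054 (SE), adjusted p = 0.000101 with RIPK3 debris. Csf2ra levels in cDC2s were 217, 225 and 242 CPM with WT medium, 266, 273 and 312 CPM with BimS debris and 259.6 and 291 CPM with RIPK3 debris. In cDC2s the rise was 0.31 ± 0.084 (SE), adjusted p = 0.0264 with BimS debris, a call that was lost without BimS replicate 2 or 3 or WT replicate 1 or 2 (adjusted p between 0.057 and 0.139). RIPK3 against WT was 0.26 ± 0.093 (SE), adjusted p = 0.108 (3.34e-09 with the block).

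Csf2rb (ENSMUSG00000071713, chr15:78209952-78238047, forward strand), the receptor transcript with the most reads, changed by small amounts. Csf2rb levels in cDC1s were 2615, 2725 and 2636 CPM with WT medium, 2895, 3002 and 2912 CPM with BimS debris and 2786, 2885 and 2721 CPM with RIPK3 debris. BimS debris exceeded WT by 0.14 ± 0.042 (SE), adjusted p = 0.0174, without overlap, and the call was lost without BimS replicate 2 or WT replicate 1 or 3 (adjusted p between 0.0821 and 0.126). Csf2rb levels in cDC2s were 1845, 1874 and 1615 CPM with WT medium, 2330, 2310 and 2108 CPM with BimS debris and 2197 and 2221 CPM with RIPK3 debris. The rise in cDC2s was 0.34 ± 0.080 (SE), adjusted p = 0.0115 with BimS and 0.30 ± 0.089 (SE), adjusted p = 0.0429 with RIPK3 debris, again without overlap. The call with BimS was lost without BimS replicate 1 or 2 (adjusted p = 0.0678 and 0.0714). The call with RIPK3 was lost without BimS replicate 1 or 2, WT replicate 2 or 3 or either RIPK3 sample (adjusted p between 0.0569 and 0.281). Csf2rb2 levels in cDC1s were 696, 746 and 695 CPM with WT medium, 803, 857 and 792 CPM with BimS debris and 772, 791 and 720.3 CPM with RIPK3 debris. Csf2rb2 rose with BimS debris (0.20 ± 0.048 (SE), adjusted p = 0.00284), and its ratio to Csf2rb stayed close, with Csf2rb 2.38 to 2.47 times Csf2rb2 with WT medium and 2.28 to 2.40 times with BimS debris per kilobase. In cDC2s, BimS against WT for Csf2rb2 was 0.28 ± 0.11 (SE), adjusted p = 0.148 (4.76e-11 with the block) and RIPK3 against WT was 0.24 ± 0.12 (SE), adjusted p = 0.301 (0.0165 with the block). Il3ra levels in cDC2s were 8.62, 9.52 and 12.9 CPM with WT medium, 7.72, 10.5 and 12.2 CPM with BimS debris and 11.2 and 12.1 CPM with RIPK3 debris. The groups overlapped, and for Il3ra RIPK3 against WT was 0.16 ± 0.19 (SE), adjusted p = 0.728 (0.0479 with the block) and RIPK3 against BimS was 0.19 ± 0.19 (SE), adjusted p = 0.822 (0.0388 with the block).

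The chains of the IL-6 receptor moved apart in cDC1s. Il6ra levels in cDC1s were 103, 109.9 and 94.2 CPM with WT medium, 79.0, 96.0 and 82.1 CPM with BimS debris and 77.3, 87.8 and 77.0 CPM with RIPK3 debris. Il6ra fell with BimS debris (-0.25 ± 0.073 (SE), adjusted p = 0.0242), with overlap, and with RIPK3 debris (-0.34 ± 0.074 (SE), adjusted p = 0.00214), without overlap. The former call was lost without BimS replicate 1 or 3, WT replicate 1 or 2 or RIPK3 replicate 3 (adjusted p between 0.0778 and 0.101), and the latter without RIPK3 replicate 3 (adjusted p = 0.0616). Il6st levels in cDC1s were 318, 298 and 308 CPM with WT medium, 359.8, 372 and 349 CPM with BimS debris and 377, 357 and 302 CPM with RIPK3 debris. Il6st rose with BimS debris (0.23 ± 0.060 (SE), adjusted p = 0.00989), a call that was lost without WT replicate 2 (adjusted p = 0.0503), and RIPK3 against WT was 0.17 ± 0.060 (SE), adjusted p = 0.0608 (0.00298 with the block). In cDC2s, Il6ra against WT was -0.28 ± 0.18 (SE), adjusted p = 0.471 with BimS and -0.43 ± 0.20 (SE), adjusted p = 0.291 with RIPK3 debris, or 2.55e-05 and 1.95e-13 with the block, and Il6st was 0.29 ± 0.098 (SE), adjusted p = 0.0841 with BimS debris (1.03e-09 with the block). Il11ra1 in cDC2s had 5.18, 5.68 and 5.50 CPM with WT medium, 4.50, 3.56 and 3.58 CPM with BimS and 5.82 and 6.50 CPM with RIPK3 debris, without overlap between the groups with WT medium and BimS debris (BimS against WT -0.50 ± 0.16 (SE), adjusted p = 0.0787, or 0.00915 with the block). Il31ra levels in cDC2s were 13.9, 11.8 and 10.8 CPM with WT medium, 17.3, 14.5 and 11.2 CPM with BimS debris and 10.3 and 9.84 CPM with RIPK3 debris. For Il31ra RIPK3 against BimS was -0.52 ± 0.17 (SE), adjusted p = 0.293 (4.85e-06 with the block) and RIPK3 against WT was -0.28 ± 0.17 (SE), adjusted p = 0.421 (0.00756 with the block). Il12rb2, Il27ra and Csf3r were called in no comparison of media.

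Il10ra and Il17ra fell slightly in cDC1s. Il10ra levels in cDC1s were 298, 295 and 288 CPM with WT medium, 264, 265 and 261 CPM with BimS debris and 271, 269 and 258 CPM with RIPK3 debris. The change in Il10ra was -0.16 ± 0.046 (SE), adjusted p = 0.0157 with BimS and -0.14 ± 0.046 (SE), adjusted p = 0.0277 with RIPK3 debris, without overlap. The calls were lost without BimS replicate 3 or WT replicate 1 or 2 for BimS (adjusted p between 0.0623 and 0.0929), and without RIPK3 replicate 2 or any WT sample for RIPK3 (adjusted p between 0.0527 and 0.128). Il17ra levels in cDC1s were 91.5, 96.1 and 92.2 CPM with WT medium, 75.4, 79.9 and 77.4 CPM with BimS debris and 78.2, 83.9 and 79.9 CPM with RIPK3 debris. The change in Il17ra was -0.27 ± 0.053 (SE), adjusted p = 0.000357 with BimS and -0.21 ± 0.053 (SE), adjusted p = 0.00406 with RIPK3 debris, without overlap, and held without any 1 sample. In cDC2s, Il10ra ranged from 379 to 431 CPM and was not called, and Il17ra was called by edgeR with the block and not without it (RIPK3 against WT -0.15 ± 0.090 (SE), adjusted p = 0.401, or 0.0219 with the block). Csf1r had 15.7, 21.6 and 18.6 CPM in cDC2s with WT medium and 12.6 and 15.2 CPM with RIPK3 debris (-0.42 ± 0.15 (SE), adjusted p = 0.114, or 0.000207 with the block). Csf1r levels in cDC1s were 1.69, 2.39 and 3.46 CPM with WT medium, 1.48, 2.20 and 1.80 CPM with BimS debris and 1.72, 1.51 and 1.61 CPM with RIPK3 debris. In cDC1s RIPK3 against WT for Csf1r was -0.65 ± 0.24 (SE), adjusted p = 0.0645 (0.0352 with the block), with overlap. Il10rb, Il15ra and Il20rb were called in no comparison of media.

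Whether a medium changed a receptor by a different amount in cDC1s and in cDC2s was tested as an interaction. In the fit without the block, 0 of 37 receptor genes were called for BimS against WT, RIPK3 against WT or RIPK3 against BimS (edgeR), where 0.870%, 1.14% and 0.0314% of all genes were. At an unadjusted p under 0.05 (edgeR) there were 6, 3 and 5, where 1623, 1635 and 972 of all 19082 genes were. DESeq2 called 1 (Il10ra), 1 (Il7r) and 0, where 261, 305 and 17 of all 19082 genes were called. With the replicate block 1 (Il7r), 1 (Il7r) and 1 (Il18rap) were called, where 2.32%, 2.35% and 0.141% of all genes were. For Il7r the response to RIPK3 debris in cDC1s minus that in cDC2s was -0.74 ± 0.20 (SE), adjusted p = 0.119, and adjusted p = 1.09e-06 with the block. A receptor called in 1 cell type and not in the other is therefore not shown to respond differently by the fit without the block.

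Sums of several marker lists also moved with the media. The 9 maturation markers (such as Ccr7 and Cd83) summed to between 4009 and 4207 CPM in cDC1s with WT medium, 3155 and 3485 CPM with BimS and 3297 and 3429 CPM with RIPK3 debris. In cDC2s they summed to between 4874 and 5546 CPM, 4205 and 4651 CPM, and 4367 and 4611 CPM. The 8 tumor cell markers with a row summed to between 77.7 and 91.8 CPM in cDC2s with WT medium, 155 and 197 CPM with BimS and 152 and 169 CPM with RIPK3 debris, most of it Thbs1 and Cdh1. In cDC1s they summed to between 4.81 and 5.58 CPM, 4.84 and 8.41 CPM, and 6.73 and 8.03 CPM. The 8 cDC1 markers in cDC1s summed to between 1550 and 1725 CPM with WT medium and 1397 and 1470 CPM with RIPK3 debris, and the 8 cDC2 markers in cDC2s to between 332 and 381 CPM and 291 and 328 CPM. The T and NK cell markers in cDC2s summed to between 2.35 and 2.91 CPM with WT medium, 1.07 and 1.70 CPM with BimS and 1.88 and 2.11 CPM with RIPK3 debris. The B cell markers in cDC1s summed to between 0.847 and 1.21 CPM with WT medium and 0.356 and 0.825 CPM with BimS debris. Their part in the receptor results was not tested.

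The ligands, signal transducers and other receptors of these pathways were taken from lists written with earlier results of these data known. Of 39 ligand genes, 32 had a row and 22 were tested in cDC1s and 21 in cDC2s. In cDC1s 2 rose and 2 fell with BimS debris and 2 rose and 1 fell with RIPK3 debris. In cDC2s 2 rose and 1 fell with BimS debris and 4 rose and 0 fell with RIPK3 debris. Of all genes tested, 13.2% and 16.5% were called in these comparisons in cDC1s and 7.01% and 7.21% in cDC2s. Il36g, a ligand of Il1rl2 and Il1rap, rose in cDC2s, from a mean of 2.56 CPM with WT medium to 8.97 CPM with BimS and 5.16 CPM with RIPK3 debris (1.80 ± 0.19 (SE), adjusted p = 2.95e-06 and 0.99 ± 0.22 (SE), adjusted p = 0.00759). In cDC1s its mean with WT medium, 0.0801 CPM, was under the limit of detection, so no fold change is given, and its means with debris were 0.43 and 0.499 CPM. Il16, a chemoattractant that binds CD4 and none of the receptors here, fell in cDC1s (-0.83 ± 0.11 (SE), adjusted p = 2.18e-06 with BimS and -1.15 ± 0.12 (SE), adjusted p = 8.3e-09 with RIPK3 debris). Il6, the ligand of Il6ra and Il6st, fell with BimS debris in cDC1s (-0.49 ± 0.067 (SE), adjusted p = 5.81e-07) and rose with RIPK3 debris in cDC2s (0.72 ± 0.11 (SE), adjusted p = 0.000106). Its response to BimS debris differed between the cell types (-0.72 ± 0.12 (SE), adjusted p = 0.000826).

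All 31 signal transducers were tested. In cDC1s 2 rose and 4 fell with BimS debris and 2 rose and 7 fell with RIPK3 debris, and in cDC2s 1 rose and 4 fell and 1 rose and 3 fell, beside the same shares of all genes (13.2%, 16.5%, 7.01% and 7.21%). Stat2, of the interferon pathway, fell in cDC1s (-0.32 ± 0.066 (SE), adjusted p = 0.00183 with BimS and -0.63 ± 0.067 (SE), adjusted p = 6.06e-07 with RIPK3 debris) and in cDC2s (-0.64 ± 0.088 (SE), adjusted p = 7.5e-05 and -0.92 ± 0.10 (SE), adjusted p = 3.87e-06). Socs1, an inhibitor of JAK kinases, rose in cDC1s (0.29 ± 0.069 (SE), adjusted p = 0.00272 and 0.40 ± 0.069 (SE), adjusted p = 3.09e-05). Ptpn6, a phosphatase that dampens cytokine receptor signals, fell in cDC2s (-0.92 ± 0.089 (SE), adjusted p = 8.32e-07 and -0.87 ± 0.10 (SE), adjusted p = 7.32e-06). The Ptpn6 response differed between the cell types with BimS (1.09 ± 0.14 (SE), edgeR adjusted p = 0.000135) and with RIPK3 debris (1.08 ± 0.16 (SE), adjusted p = 0.000311). Of 11 other receptors 10 had a row. Kit fell in cDC1s (-0.59 ± 0.050 (SE), adjusted p = 1.54e-11 with BimS and -0.94 ± 0.051 (SE), adjusted p = 8.1e-17 with RIPK3 debris), as did Flt3, the receptor of FLT3L (-0.33 ± 0.093 (SE), adjusted p = 0.0429 and -0.51 ± 0.094 (SE), adjusted p = 0.00347), and of 7 tested in cDC1s 3 fell with BimS and 4 fell with RIPK3 debris, where 5.89% and 8.19% of all genes fell. In cDC2s, 2 of 8 fell with BimS debris, Flt3 (-0.30 ± 0.090 (SE), adjusted p = 0.0489) among them, and 1 fell with RIPK3 debris, Kit (-0.45 ± 0.10 (SE), adjusted p = 0.00847), where 3.21% and 3.28% of all genes fell.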

How the data were processed

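Polyadenylated RNA of 17 sorted cDC samples was sequenced as paired-end reads. The authors trimmed reads with SeqPurge, aligned them with STAR 2.7.10a to GRCm39 (Ensembl annotation), ran gensum for the counting of genes, and deposited raw counts without pooling samples. The authors also deposited normalized values, which are log2 of counts scaled by the total per sample, and these served only in an alternative. Whether counting used strand is not given in the sources used here.

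Of 31239 lines, 148 named no gene (0.0258% to 0.0366% of counts) and were left out, and 30854 of 31091 identifiers matched a symbol. Each sample was placed in its group by its label. The receptor genes and all lists were chosen with earlier results of these data known. A gene was tested if 50% or more of a fit's samples had a count above 0. The test was run with edgeR 4.0.16 (R 4.3.3; TMM, robust quasi-likelihood test, Benjamini-Hochberg adjustment over all genes tested, threshold 0.05), separately in 9 cDC1 and 8 cDC2 samples. The cell types were compared over 17 samples with a term for medium, and interactions came from a fit of 6 groups. The study states both a log2(count + 1) transformation and limma on the raw count matrix. This was read as limma on log2(count + 1), which is an alternative here because raw counts were deposited. Log2 fold changes are given with their SE. The fits were tested on simulated data.

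All receptor genes were accounted for. Those called without the block in a comparison of media are given by sample in that cell type, those called in the block fit alone are given in part, and of the companion lists at most the 3 largest rises and falls per comparison were considered for naming, among genes with a mean of at least 10 counts in a group. Libraries of 16095159 to 21645289 counts put 3 counts as the limit of detection, and such floors cover counting error only.

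Alternatives were DESeq2 1.42.0, RLE factors, filterByExpr, no filter, limma 3.58.1 on log2(count + 1) and on the deposited values, a replicate block, WT medium alone and leaving out each sample. The labels give replicate numbers across groups. Within a cell type, deviations from the group means of same-numbered samples correlated above 0.1 in 16 of 16 pairs (median r 0.355 across genes). The numbers were therefore taken to pair the samples. Deviations of differently numbered samples did so in 4 of 32 pairs (median -0.187). Subtracting group means forces these negative where the former are positive, so they are not separate evidence. The pairing comes from the data and not from a stated shared culture or day.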

Additional observations from a re-analysis of the deposited data

Results flagged for a closer look

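In all, 3 interaction values of receptor genes passed the test once the replicate number was a block, 1 of 37 in each of the 3 comparisons, where 2.32% of all genes passed for BimS and 2.35% for RIPK3 debris set against WT medium, and 0.141% for the 2 kinds of debris. The first 2 shares of the receptor genes are near those of all genes. For Il7r, the response to BimS debris in cDC1s minus that in cDC2s was -0.322 (log2, edgeR adjusted p = 0.0157), and for RIPK3 debris it was -0.672 (adjusted p = 1.09e-06). For Il18rap, the corresponding difference for RIPK3 against BimS debris was -0.676 (adjusted p = 0.0399). Without the block the RIPK3 values were -0.74 for Il7r (adjusted p = 0.119) and -0.74 for Il18rap (adjusted p = 0.902).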

How the results depend on the processing

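None of the called receptor genes changed direction under the alternatives run, while the medians over receptor genes for RIPK3 against WT changed sign in both cell types, as given with them. Of 34 calls of measured genes between media (the rare Il17re is not among them, and its call was not made with DESeq2 or filterByExpr), DESeq2 kept 33, RLE factors 34, filterByExpr 33, no filter 34, the replicate block 34, limma on the deposited values 27 and limma on log2(count + 1), the transformation the study names, 15. That last transformation does not scale for depth and put the median of all genes at -0.174 to -0.038 in the comparisons of media, against -0.022 to 0.002 with edgeR. All 29 calls of measured genes between the cell types held under every alternative but WT medium alone, where Il1rap (adjusted p = 0.255), Il15ra (0.289) and Il11ra1 (0.0528) lost theirs. Leaving out each sample kept 247 of 294 and 493 of 493. With limma on log2(count + 1), 3 receptor genes were called in cDC1s for BimS against WT, 2 in cDC2s for BimS against WT and 0 in cDC2s for RIPK3 against BimS, of 36, 38 and 38 tested, where 1510 of 19513, 1059 of 19239 and 148 of 19239 of all genes were. With no filter, 10, 12 and 2 were called in cDC2s when BimS or RIPK3 was set against WT and RIPK3 against BimS, of 41 tested, where 1761, 1742 and 300 of all 27004 genes were, and 1 for the RIPK3 against WT interaction, where 371 of 31091 were. With the replicate block the counts were 7 in cDC1s for RIPK3 against BimS, 15, 20 and 14 in cDC2s in the same order, and 1 for each interaction. Of all genes, 1730 of 19513, then 4103, 4126 and 2755 of 19239 were called there. The interactions gave 443, 449 and 27 of 19082. DESeq2 called 1 for the BimS against WT and 1 for the RIPK3 against WT interaction, where 261 and 305 of all 19082 genes were. Leaving out each sample gave 6 to 11, 8 to 11 and 2 to 4 calls in cDC1s in that order. Of all genes, 1987 to 3151, 2531 to 3314 and 489 to 1027 were called in these fits, of 20072 to 20223 tested. In fits that kept at least 2 samples in each group, it gave 3 to 7 in cDC2s for BimS against WT (3 without WT replicate 2). It gave 4 to 7 for RIPK3 against WT and 0 to 1 for RIPK3 against BimS (0 without BimS replicate 1 or 2). Of all genes, 783 to 1504 (783 without WT replicate 2), 916 to 1819 and 23 to 214 were called in these fits, of 18601 to 18683 tested. With the same limit on group size, it gave 30 to 32 between the cell types, where 11168 to 11439 of all genes were called. For the interactions it gave 0 to 0, 0 to 1 (1 without cDC1 RIPK3 replicate 1) and 0 to 0, where 93 to 234, 151 to 258 and 2 to 10 of all genes were. These fits tested 19370 to 19473 genes. Where a cDC2 RIPK3 sample was left out, the lone sample was assumed to vary like the others. The cause of these shifts was not tested. Depth limits the 9 rare genes and the low cDC1 levels of Il1r1, Il1rl1, Il1rl2, Il27ra and Csf3r.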
